A study of Mus musculus with 6 samples.

Results

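The clustered protocadherins are 57 protein-coding genes of mouse chromosome 18 that encode cell-surface adhesion proteins. They were taken from the 21779 protein-coding genes on the map by chromosome and symbol, as the genes named Pcdha, Pcdhb, Pcdhga, Pcdhgb or Pcdhgc followed by a number, together with Pcdhac1 and Pcdhac2. The rule used no measured value, but it was set with earlier results of these data known. They form 3 arrays: 14 alpha genes, 22 beta genes and 21 gamma genes. From the start of Pcdha1 at position 36930285 to the end of the gamma records at 37841873 (mm10) they span 911.6 kb, and the interval analysed adds 100 kb on each side.

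The series profiled histone variant H3.3 in hematopoietic stem cells (HSCs) from adult bone marrow of C57BL/6 mice, wild type or knockout for HIRA, a chaperone that places H3.3 into chromatin outside replication. It has 2 H3.3 ChIP libraries of each genotype and 1 input of each. The labels' protocols give the same induction scheme for every sample, wild type included: poly(I:C), an inducer of interferon, at 20 ug in 2 doses, with cells sorted 7 days after the first. The sources used here do not give the promoter that drives the deletion, the number of mice behind a library or their ages in weeks. The values are a single division of the genome into 18 chromatin states in bins of 200 bp, which its file name ties to wild-type H3.3. Replicates and the knockout have no values in it, so wild type and knockout were not compared here. No number below can be traced to a library, no difference has a replicate check, and the depth is unknown. Counts and shares are therefore given without a test, beside the same value over all genes or all bases.

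Each alpha and gamma gene starts with a large variable exon of its own, which has its own promoter and is spliced to constant exons shared by the whole array. Beta genes are mostly single exons. In neurons each cell switches on a few promoters of the arrays, and the proteins bind like with like, so that the neurites of a cell recognise and avoid each other. The C-type genes, Pcdhac1, Pcdhac2, Pcdhgc3, Pcdhgc4 and Pcdhgc5, lie nearest the constant exons and are used more widely among neurons. The factor CTCF and the cohesin ring fold distant enhancers onto the chosen promoters, and DNA methylation and histone H3 lysine 9 methylation help to keep the others silent. These adhesion proteins are known mainly from the nervous system, not from blood stem cells.

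The states carry numbers and no names, so genes of known use give their bearings. Of 13 HSC marker genes, 12 had an end of the gene record in states 3 to 6. The exception was Ly6a, the gene of the sorting marker Sca-1, with both ends in state 17. States 9 to 11 were found at an end of 9 of 10 neuronal genes, and Map2, the other one, had an end in state 5. Over all protein-coding genes the shares were 47.6% for states 3 to 6 and 23.9% for states 9 to 11. Among 9 markers of marrow stroma and endothelium 5 had an end in states 9 to 11 and 2 in states 3 to 6. Among 6 markers of mature blood these counts were 2 and 0. State 18 covered 55.0% of the map, states 9 to 11 together covered 13.5% and state 14 covered 0.923%. Over the map, state 14 segments bordered state 11 at 74.0% of their borders and state 15 at 20.1%.

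The protocadherin arrays were occupied mainly by states 11, 18 and 14. From the first to the last member state 11 covered 44.0% of bases, state 18 covered 29.3% and state 14 covered 11.4%, 104 kb in 66 segments. States 9 to 11 together covered 46.1%. State 9, at 0.182% of the map, covered 0.987%. The map was also cut into 2814 windows of the same length, 911.6 kb, laid end to end over the autosomes and X. Of these, 0.142% had as much state 14 as the arrays or more, 1.95% had as much state 11 and 1.88% had as much state 9. State 18 was less common than over most of the map: 85.9% of windows held as much or more. State changes came at 43.8 segments per 100 kb against 31.2 over the map, a density that 19.4% of windows matched or passed.

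**Figure D1:**
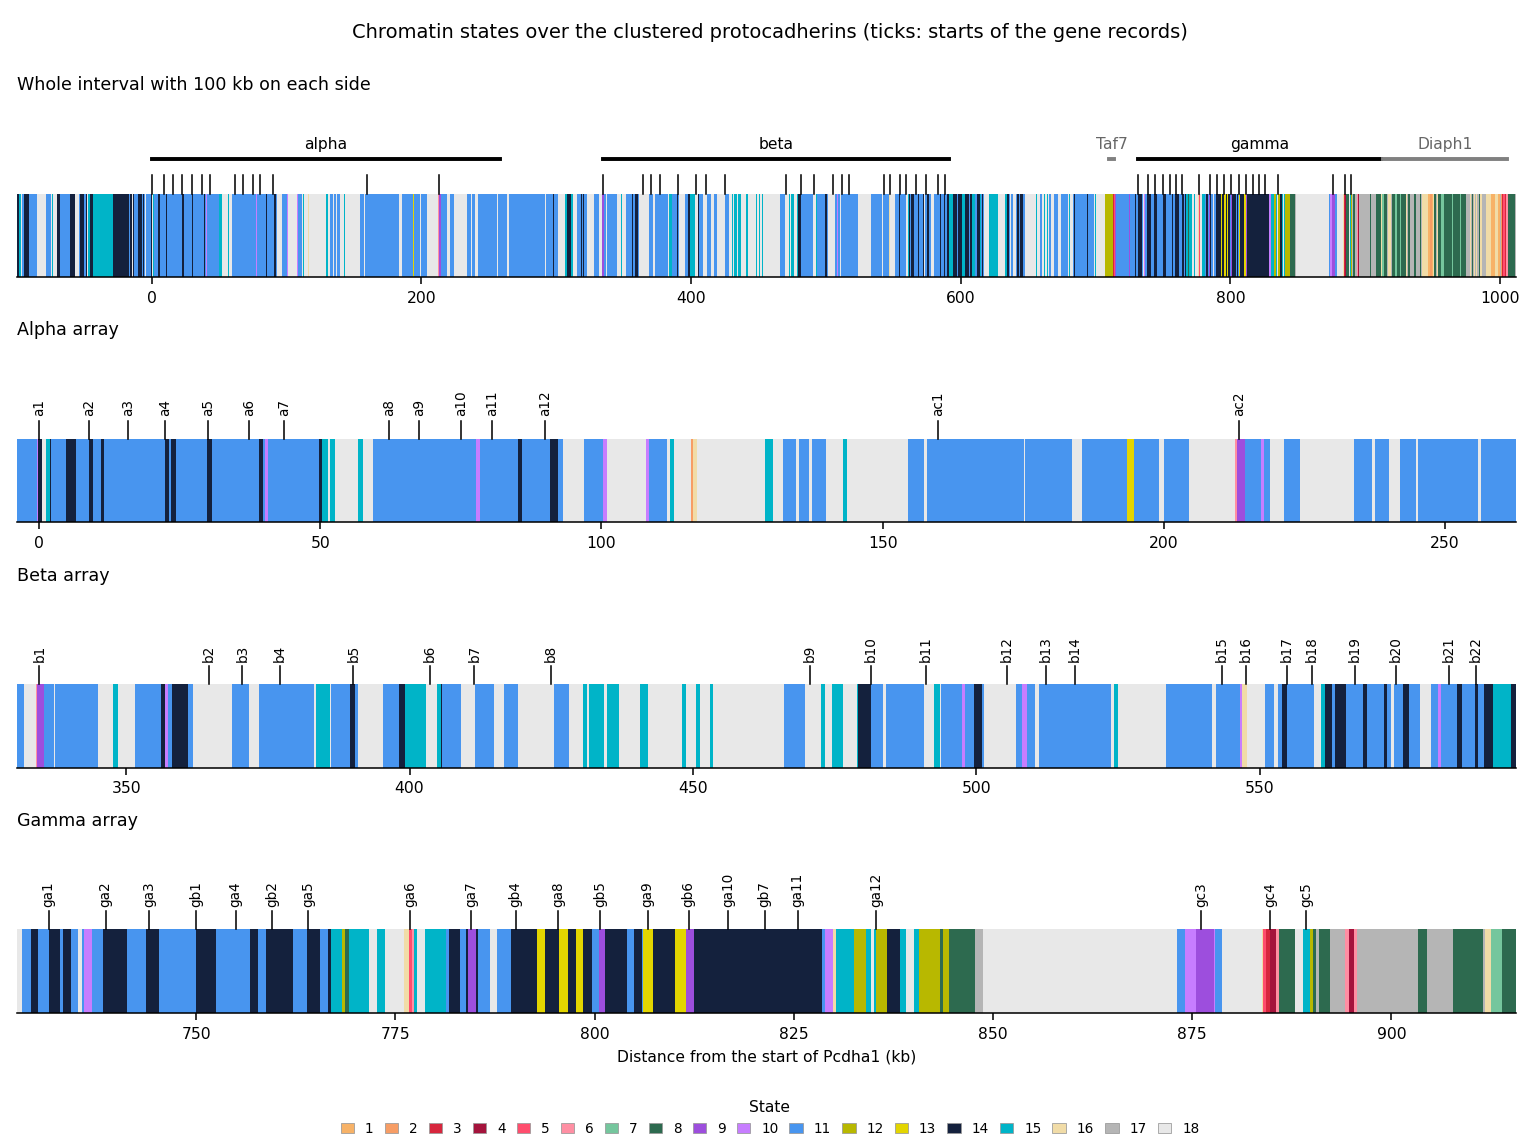
State map of the interval, drawn by distance in kb from the start of Pcdha1, with a tick at each gene record start. The top row shows the interval with 100 kb on each side and the lower rows show the alpha, beta and gamma arrays. State 11 fills most of the alpha array (61.2% of bases), and state 14 is densest in the gamma array (27.3%).

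The 3 arrays differed in makeup. State 11 covered 61.2% of the alpha array, 45.9% of the beta array and 14.7% of the gamma array. State 14 ran the other way, at 3.68%, 7.25% and 27.3%. State 18 was at 29.9%, 36.7% and 20.9%. The gamma array was also the most finely divided, with 60.0 segments per 100 kb against 33.3 in alpha and 44.8 in beta, and its median segment was 1.00 kb.

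At the starts of the members, states 11 and 14 prevailed. The start was taken as the left end of each record, since all members read in that direction. State 11 held 22 of the 57 starts (38.6%), against 9.68% of 21238 annotated starts of protein-coding genes on other chromosomes. State 14 held 16 (28.1%), against 0.532%. Over all bases from the first to the last member, these 2 states covered 44.0% and 11.4%. The share of state 11 at the starts was thus below that of the span as a whole. By array, state 14 held 28.6%, 9.09% and 47.6% of the alpha, beta and gamma starts, against 3.68%, 7.25% and 27.3% of bases. State 18 held 7 (12.3%), below the 18.1% of all annotated starts, and state 9 held 6 (10.5%, against 7.81%). The remaining 6 starts were spread over 5 states. State 15 held the starts of Pcdhga12 and Pcdhgc5 (background 2.00%), while Pcdhgc4 lay in state 4 (9.81%), Pcdhga6 in state 5 (12.1%), Pcdhga9 in state 13 (0.0330%) and Pcdhb16 in state 16 (2.21%). Neighbours share segments: 10 of the 57 members start in 4 segments that hold several starts, so the members are not independent of each other.

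Counted by either end of the record, states 9 to 11 lay at an end of 36 of 57 members (63.2%), against 23.9% of all protein-coding genes. An end in states 3 to 6, where most HSC markers had one, was found for 2 members (3.51%, against 47.6%), Pcdhga6 and Pcdhgc4. Both ends lay in state 18 for 3 members (5.26%, against 13.6%), all of them beta genes. Alpha and gamma records could not meet this condition, because their right ends lie in states 11 and 17. Among the 22 beta genes alone the share was 13.6%, the same as over all genes. An end in state 14 was found for 17 members (29.8%, against 1.10%). These counts are shaped by the shared ends: the alpha records stop in 1 state 11 segment of 7.0 kb, and the gamma records in 1 state 17 segment of 0.2 kb.

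**Figure D2:**
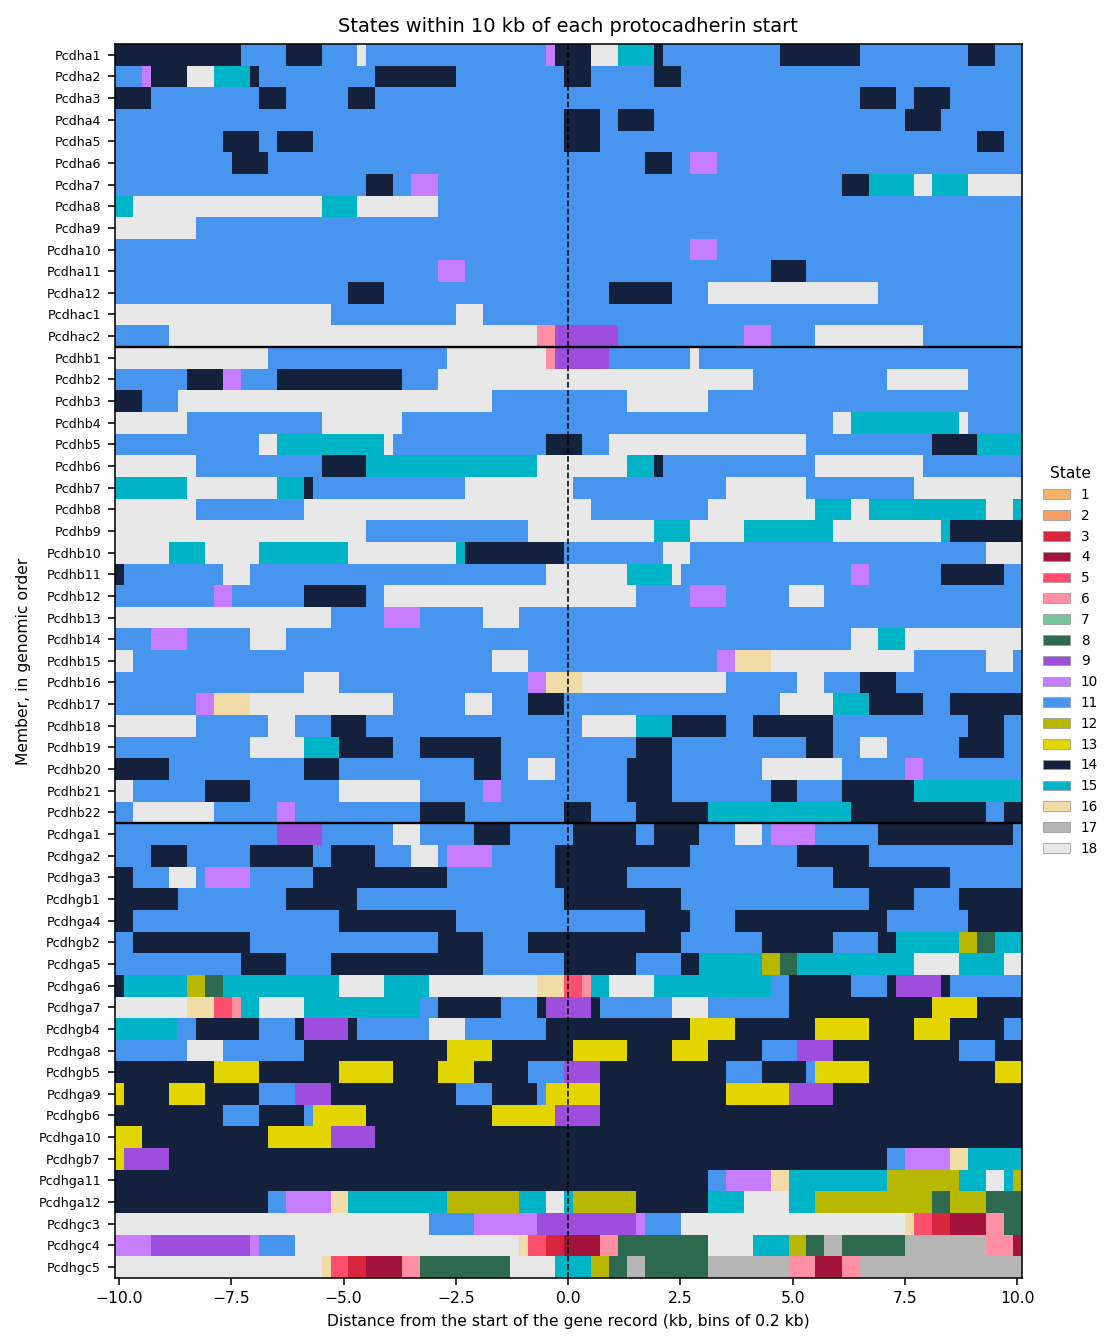
States in bins of 0.2 kb within 10 kb of the start of each member, 1 row per member in genomic order, with black lines between the alpha, beta and gamma arrays. State 14 (dark) lies at the start of Pcdha1, Pcdha2, Pcdha4 and Pcdha5 and over most of the first 3 kb of 6 of 6 gamma B and 6 of 12 gamma A genes, and it is missing from the first 3 kb of the 5 C-type genes.

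Around the starts of the numbered alpha genes, state 11 was the main state, broken by short pieces of state 14. From Pcdha1 to the start of Pcdha12, an 89.9 kb stretch, state 11 covered 78.1% and state 14 covered 9.02%. Pcdha1 (36930285 to 37187657) started in a state 14 segment of 0.8 kb, 284 bp from its left border. Pcdha2 (start 36939205) began 4 bp inside a state 14 segment of 0.6 kb. The starts of Pcdha4 and Pcdha5 lay 88 and 75 bp inside state 14 segments of 0.8 kb each. With borders on a grid of 200 bp, state 14 thus opened in the bin that holds the start in the case of Pcdha2, Pcdha4 and Pcdha5.

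The other 8 numbered alpha genes started in state 11. Pcdha8, Pcdha9 and Pcdha10 shared a single state 11 segment of 18.4 kb, in which Pcdha8 had the longest way to the next change of state of any member, 15.5 kb. Pcdha12 (start 37020230), the last numbered alpha gene, began in a state 11 segment of 5.0 kb and had 1.4 kb of state 14 within its first 3 kb. Pcdha9 was 17.4 kb from the nearest bin of state 14, counted from the bin that holds the start, as for all such distances. State 14 was thus present at the left end of the array and scarce in its middle.

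Beyond Pcdha12 the chromatin changed again. Over the 69.9 kb from the start of Pcdha12 to that of Pcdhac1, where no member starts, state 18 covered 62.7% and state 11 covered 27.9%. This stretch held the only state 2 segment between the first and last member, 0.4 kb long (37046201 to 37046600) beside 0.6 kb of state 16, and 26.0 kb to the right of the start of Pcdha12. From Pcdhac1 to the end of the array state 11 returned, with 69.4% of 98.8 kb, and no state 14 was found.

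The 2 C-type alpha genes differed from each other at their starts. Pcdhac1 (start 37090136) lay in a state 11 segment of 17.2 kb, and all of its first 3 kb was state 11. Pcdhac2 (37143678 to 37187663) started in a state 9 segment of 1.4 kb, with 0.4 kb of state 6 directly before it and state 11 after it. State 9 is found at 7.81% of annotated starts but over only 0.182% of bases. The nearest state 14 bin was 67.6 kb from Pcdhac1 and 84.4 kb from Pcdhac2.

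Beta genes started mainly in states 11 and 18. Of 22 starts, 11 lay in state 11, 7 in state 18 and 2 in state 14, with 1 each in states 9 and 16. Pcdhb1 (37264998 to 37267454), the first beta gene, started in a state 9 segment of 1.2 kb preceded by 0.2 kb of state 6, the same order of states as at Pcdhac2. The starts in state 18 were those of Pcdhb2, Pcdhb6, Pcdhb7, Pcdhb8, Pcdhb9, Pcdhb11 and Pcdhb12, all in the left part of the array.

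Of the beta records, 6 lay within 1 segment from end to end. Pcdhb2 lay in a state 18 segment of 7.0 kb, and Pcdhb4, Pcdhb13, Pcdhb14, Pcdhb15 and Pcdhb17 lay in state 11. Pcdhb13 and Pcdhb14 shared a state 11 segment of 12.6 kb. Such uniform cover was not the rule: Pcdhb18 (37489465 to 37494503) crossed 6 segments of 4 states within its 5.0 kb. Pcdhb16 (start 37477768) was the only member that started in state 16, in a segment of 0.8 kb that followed 0.4 kb of state 10.

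State 14 thickened toward the right end of the beta array. From Pcdhb1 to the start of Pcdhb13 it covered 5.18% of 177.5 kb, and from there to the end of the array 11.9% of 78.9 kb. State 11 was at 38.7% and 62.2% in these stretches, and state 18 at 43.3% and 22.1%. Pcdhb19, Pcdhb20 and Pcdhb21 started in state 11 and carried 0.8, 1.0 and 1.0 kb of state 14 within the first 3 kb. Pcdhb22 (37518353 to 37521419), the last beta gene, began in state 14 and had 2.0 kb of it. Pcdhb5 was the other beta gene with its start in state 14, in a segment of 0.8 kb 219 bp from its right border.

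The gamma A and gamma B genes lie interleaved and carried the most state 14. Within the first 3 kb, state 14 was found in 6 of 6 gamma B and 11 of 12 gamma A members, against 6 of 12 numbered alpha genes, 7 of 22 beta genes and 1.52% of annotated starts. It covered 85.6% of the bases in these first 3 kb in gamma B and 57.2% in gamma A. The share was 17.8% in the numbered alpha genes, 9.09% in beta and 0.463% over all annotated starts. The exception among the gamma A genes was Pcdhga6, with no state 14 in that window.

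From Pcdhga1 to Pcdhga5 state 14 alternated with state 11. Over the 45.3 kb from the start of Pcdhga1 to that of Pcdhga6, state 11 covered 39.3% and state 14 covered 35.3%. Pcdhga1 (start 37661775) lay in state 11, 25 bp before a state 14 segment, and 2.4 of its first 3 kb were state 14. Pcdhga2, Pcdhgb1 and Pcdhgb2 started in state 14 segments of 3.0, 2.6 and 3.4 kb. Pcdhga3 and Pcdhga5 started in state 14 segments of 1.6 kb each. Pcdhga4 started in state 11 and reached state 14 after 1763 bp.

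Pcdhga6 (start 37707101) broke the series. It started in 0.4 kb of state 5 followed by 0.2 kb of state 6, with state 16 before and state 15 after, and the nearest bin of state 14 was 5.0 kb away. It is thus 1 of the 2 members that start in states 3 to 6, in a run of 0.6 kb. The next member, Pcdhga7 (start 37714834), lay in a state 9 segment of 1.0 kb with 0.2 kb of state 14 on each side.

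From Pcdhgb4 to Pcdhga11, state 14 became the main state. Over the 58.5 kb from the start of Pcdhga6 to that of Pcdhga12, it covered 54.0%, state 11 covered 11.6% and state 13 covered 9.58%. State 13 covers 0.203% of the map. The starts of Pcdhga10, Pcdhgb7 and Pcdhga11 lay in 1 state 14 segment of 16.0 kb (37742801 to 37758800), the 10th longest of the 28619 state 14 segments of the map, whose median is 0.8 kb. Pcdhgb5 and Pcdhgb6 each started in state 9, in segments of 0.8 and 1.0 kb, and Pcdhga9 in 1.2 kb of state 13. Pcdhga8 started in a state 14 segment of 1.8 kb, 94 bp before a state 13 segment. These small islands of states 9 and 13 at starts lay directly against state 14 on at least 1 side. In the member span 25.0% of the borders of state 9 were with state 14, against 1.65% over the map, and 66.7% of those of state 13, against 6.33%. The counts behind these shares are small, 4 of 16 and 8 of 12 borders.

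Pcdhga12 (start 37765580), the last gamma A gene, started in 0.2 kb of state 15, 20 bp before a state 12 segment, the shortest such distance of any member, and states 12 and 14 each covered 1.4 kb of its first 3 kb. State 12 covers 0.220% of the map, and it covered 11.8% of the 40.8 kb from Pcdhga12 to Pcdhgc3. The rest of that stretch was mostly a single state 18 segment of 24.4 kb, the longest segment of any state between the first and last member.

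The 3 C-type gamma genes differed in state from the other gamma genes and from each other. Pcdhgc3 (37806410 to 37841873), which is known to promote dendrite branching, started in a state 9 segment of 2.2 kb with state 10 on both sides. Pcdhgc4 (start 37815079), known as the gamma isoform that neurons need to survive, started in state 4. It sat in a run of states 5, 3, 4 and 6 that was 2.0 kb long (37814201 to 37816200) and was followed by 2.0 kb of state 8. Pcdhgc5 (start 37819546) started in 0.8 kb of state 15, and 53.3% of its first 3 kb was state 8. Counted in bins, the nearest state 14 was 38.0 kb from Pcdhgc3, 46.6 kb from Pcdhgc4 and 51.0 kb from Pcdhgc5.

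The shared 3′ part of the gamma genes looked unlike the rest of the arrays. From the start of Pcdhgc5 to the end of the array, 22.3 kb, state 17 covered 58.5%, state 8 covered 30.5% and states 3 to 6 covered 7.17%. A second run of states 6, 4 and 6, 1.6 kb long (37824401 to 37826000), lay there with no member start within 1 kb. The alpha array ended otherwise, with state 11 over 69.4% of the stretch from Pcdhac1 on. State 8 covered 0% of the alpha and beta arrays.

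**Figure D3:**
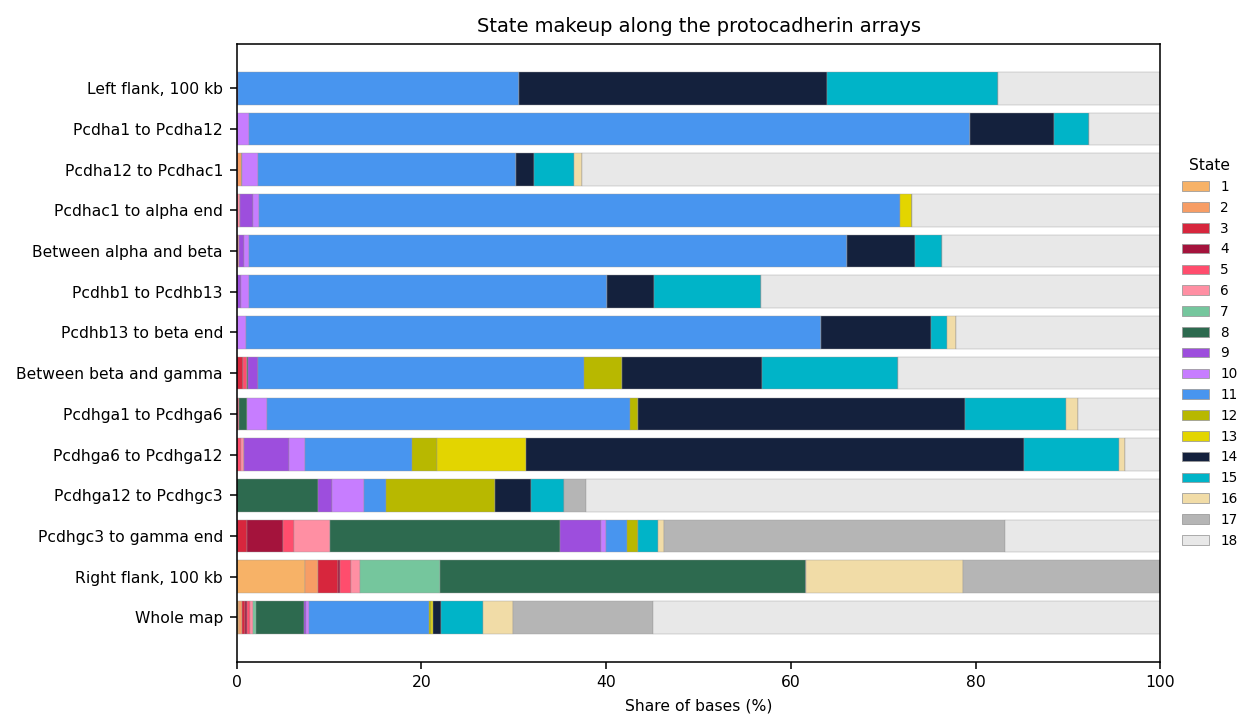
Share of bases in each of the 18 states, in percent, for consecutive stretches from the left flank to the right flank, with the whole map at the bottom. State 14 reaches 54.0% between Pcdhga6 and Pcdhga12, and states 8 and 17 take over from Pcdhgc3 into the right flank.

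State 14 was not spread evenly around the starts. At the bin of the start it held 28.1% of members, 0.6 kb further 22.8%, and at 2.0 kb 40.4%, the highest share within 10 kb on either side. The share at the start was not a peak by itself, since 4.8 kb before the start it was 29.8%. In alpha the share was 28.6% at the start, 0% at 0.8 kb and 28.6% at 2.0 kb. In beta it was 9.09% at the start, 0% between 0.6 and 1.2 kb and 22.7% at 2.0 kb. The gamma share was 47.6% at the start (10 of 21) and 66.7% at 2.0 kb (14 of 21). At 0.6 kb gamma had 11 of 21, so the lower share there was not seen in gamma. Over all annotated starts it stayed between 0.367% and 0.725% from 10 kb before to 10 kb after.

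The members behind the shares at the start and at 2.0 kb differed. State 14 ran from the start to 2.0 kb without a break in 7, all gamma A or gamma B genes. It was present at both places with another state between in 4, Pcdha1, Pcdha2, Pcdhb22 and Pcdhga8. In 12 members it was found at 2.0 kb but not at the start, among them Pcdha6, Pcdha12, Pcdhb19, Pcdhb20 and Pcdhb21. The reverse held for 5, Pcdha4, Pcdha5, Pcdhb5, Pcdhga3 and Pcdhga5. Starts of neighbouring members are a median of 7.44 kb apart in alpha, 7.84 kb in beta and 5.37 kb in gamma, so each profile also includes parts of the next gene. In beta the highest share in the window, 31.8%, lay 9.0 kb after the start.

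**Figure D4:**
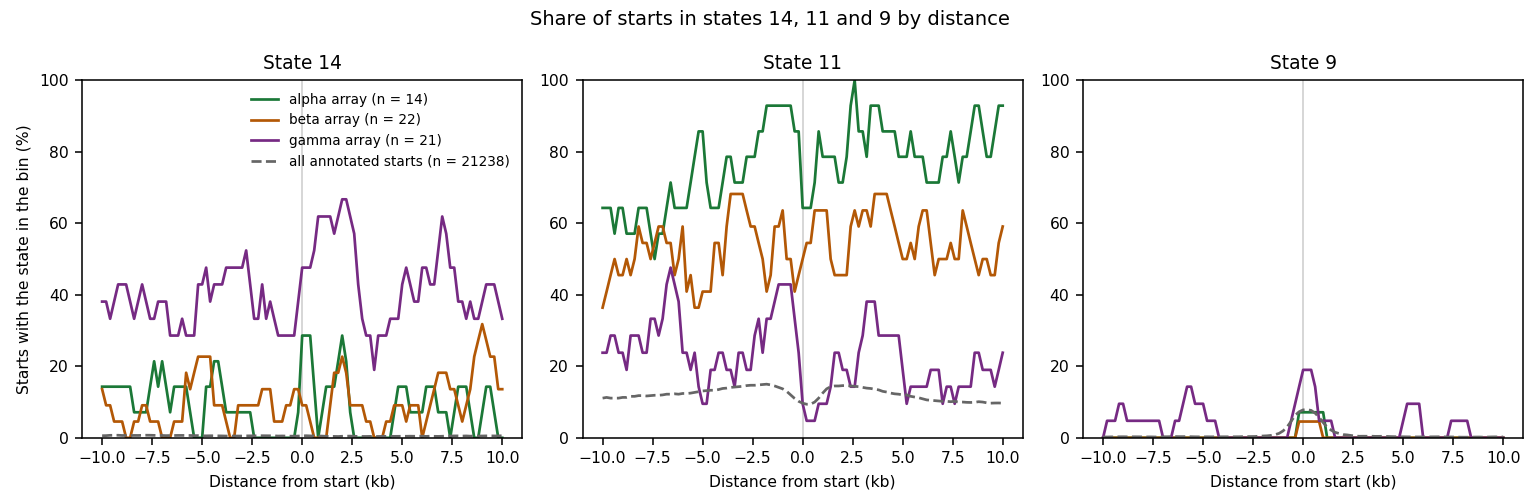
Percentage of starts whose bin at each distance from the start (kb) is in state 14, 11 or 9, for the alpha, beta and gamma arrays (solid lines) and for all annotated starts (dashed). In state 14 the alpha and beta lines reach 28.6% and 22.7% at 2.0 kb and the gamma line reaches 66.7%, while the dashed line stays under 1%.

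Within 1 kb of the start, state 14 was found for 24 of 57 members (42.1%), against 1.37% of annotated starts. By subfamily the count was 6 of 6 in gamma B, 9 of 12 in gamma A, 5 of 12 numbered alpha genes, 4 of 22 in beta and 0 of 5 C-type genes. Of the 16 starts inside state 14, 9 (56.2%) lay within 400 bp of the border before them, and the same held for 54 of 113 annotated starts in state 14 elsewhere (47.8%).

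Beyond the arrays the 2 flanks differed in makeup. The left flank held no protein-coding gene within 100 kb and was made of state 14 (33.3%), state 11 (30.4%), state 15 (18.5%) and state 18 (17.6%), so the share of state 14 was close to the 35.3% from Pcdhga1 to Pcdhga6. The nearest protein-coding gene on the left, Zmat2, ends at 36799660 and had ends in states 3 and 16. Between beta and gamma lie Slc25a2, a mitochondrial ornithine transporter, with ends in states 8 and 12, and Taf7, a subunit of the general transcription factor TFIID, with ends in states 12 and 5. Taf7 had 1.6 kb of states 3, 5 and 3 at its right end, followed by 0.4 kb of state 9.

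On the right, the flank was covered mainly by states 8 and 17, as was the stretch from Pcdhgc5 on. The flank also held states 1, 2, 3, 5, 7 and 16, which were absent from Pcdhgc5 to the end of the gamma array. Diaph1 encodes a formin that assembles actin filaments. The left end of its record, which need not be its start, lies at 37843601, just after the last gamma record ends at 37841873. The left and right ends of Diaph1 lay in states 7 and 6. In the 100 kb of the right flank, states 7 and 8 covered 48.2% and states 16 and 17 covered 38.4%, with 0% in states 9 to 11, 14 and 18. Hdac3, a histone deacetylase gene, had ends in states 8 and 6. The read-through records Gm37013, Gm38666 and Gm38667 run from the alpha array to the end of the gamma array and are not members.

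Other gene groups were set beside the members, and no difference between groups was tested. The 13 protocadherin genes outside the arrays, with the related Cdhr1 among them, all had an end in states 9 to 11 (all genes, 23.9%). None had an end in state 14, which at 1.10% over all genes is not a low count for 13 genes. Of 11 annotated starts of 10 of these genes, 7 lay in state 9 (63.6%; all annotated starts, 7.81%). These were the starts of Pcdh8, Pcdh9 (2 starts), Pcdh10, Pcdh17, Pcdh18 and Pcdh19. Pcdh20 and Cdhr1 started in state 11, Pcdh7 in state 5, and 1 start inside Pcdh15 in state 14. Pcdh1 had both ends in state 9, Pcdh12 ends in states 17 and 11, and Pcdh11x both ends in state 11.

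The 1461 olfactory and vomeronasal receptor genes, which also lie in long arrays, had an end in state 14 in 5.48% of cases (all genes, 1.10%), in states 9 to 11 in 44.3% (23.9%) and both ends in state 18 in 39.6% (13.6%). Of 1272 annotated starts of these receptor genes, 33.9% lay in state 11 and 2.28% in state 14, so both states were more frequent there than over all annotated starts, as they were at the members. All 18 HoxC and HoxD genes had an end in states 9 to 11 (all genes, 23.9%). None had an end in state 14, which at 1.10% over all genes is not a low count for 18 genes. Among 23 cadherin genes named Cdh with a number, 15 (65.2%; all genes, 23.9%) had an end in states 9 to 11 and 1 (4.35%; all genes, 1.10%) in state 14.

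Genes known to control the arrays mostly had an end in states 3 to 6. The list has 22 genes and counts, beside such regulators, Hira, the gene knocked out in the series. Of the 22, 16 had an end in states 3 to 6 (72.7%, against 47.6% over all genes). States 9 to 11 lay at an end of 1, Stag2 (4.55%; over all genes, 23.9%). Ctcf had ends in states 5 and 8. Among cohesin genes, Smc1a had ends in states 5 and 8, Smc3 in 4 and 8, Stag2 in 6 and 11, Stag1 in 18 and 7, and Rad21 in 17 and 18. For the loading and release factors the ends were 17 and 18 at Nipbl, 16 and 6 at Mau2, 17 and 13 at Wapl, 8 and 6 at Pds5a, and 6 and 13 at Pds5b. No cohesin or loading gene had both ends in state 18, which at 13.6% over all genes is not a low count for so few genes.

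Among the silencing genes, Setdb1, which methylates histone H3 lysine 9, had ends in states 7 and 4, its partners Trim28 in 3 and 8 and Atf7ip in 5 and 8, and Smchd1, a repressor of the protocadherin arrays and of the inactive X, in 8 and 3. The DNA methylation genes Dnmt3b, Uhrf1 and Dnmt1 had ends in states 6 and 8, 4 and 17, and 8 and 17, and Dnmt3a had both ends in state 17. Rest, a repressor of neuronal genes, had ends in states 4 and 12. Hira itself had ends in states 3 and 8.

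Of 11 genes for partners of protocadherin cytoplasmic domains or of their pathway, 8 (72.7%; all genes, 47.6%) had an end in states 3 to 6. Among them were the kinases Ptk2 (states 17 and 3) and Ptk2b (states 8 and 6). Wasf1 and Ret had an end in state 9, and Axin1, a partner of Pcdhgc3, had ends in states 8 and 7. Only the ends of records were read for these lists, and a record's ends mix its start with its 3′ end.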

How the data were processed

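The authors deposited a state number for each segment, which is a label and not a quantity. The order of the states follows their emissions, per the file headers, and the file names point to ChromHMM. Input tracks, emission values and version of the model: not given in the sources used here. Bowtie2, deepTools, MACS2, HOMER and mm10 are listed, with no version, per the submitters' processing notes. The dense and the expanded track agreed in 100% of bins.

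Segments were expanded to bins of 200 bp with Python 3.11.15, numpy 2.4.6 and pandas 2.3.3. RefSeq gene records of GRCm38.p6 (mm10) were used, 1-based. From the 21900 protein-coding ones, 108 with a start in the unassembled first 3 Mb and 13 that are mitochondrial or off the map were left out. Background starts, with strand, came from a RefSeq promoter table that has no entry for chromosome 18. It gave 21238 starts of 17469 genes. The state lookup was tested on simulated data.

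Named members followed a rule: the first and last of each subfamily, those in another state than most of it, C-type genes, those nearest to and farthest from a change of state, those with an end in states 3 to 6, and neighbours. Members and lists were chosen with earlier results of these data known, and the classes of states come from those. Other members named, the first 3 kb and the 2.0 kb offset were chosen after their values were seen. Alternatives changed the track, short segments, the reading of an end, shared ends and the flanks. Not every gene that the rule takes is reported here.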

Additional observations from a re-analysis of the deposited data

How the results depend on the processing

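Of 107 recomputed values, 98 stayed within 1.5 times the reported one. These include all 30 from the expanded track. That track equals the dense one in every bin, so these 30 could not differ and say nothing about robustness. The 22, 16 and 7 starts in states 11, 14 and 18 and the base shares of these states in each array and in the interval stayed within that range under every alternative run for them. By the most frequent state within 1 kb, however, 27 members started in state 11 and 11 in state 14, the second count close to the limit. The values outside the range were small counts. Members with an end in states 3 to 6, reported as 2, numbered 1 by the most frequent state within 1 kb and 4 by any bin within 1 kb, which adds Pcdhac2 and Pcdhb1. Members with both ends in state 18, reported as 3, numbered 1 when every bin within 1 kb had to be in it and 7 by the left end alone, which drops a condition. With a window of 5 kb chosen after seeing the data, state 18 was the most frequent state for 5 members, against 9 with 3 kb. No paired analysis was possible because the map has no column per replicate. Leaving out a replicate was not possible for the same reason. State lengths are limited by bins of 200 bp.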
